A study of Mus musculus with 2 samples.

Results

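Single nuclei came from frozen mouse liver with hepatocellular carcinoma (HCC). Among them, a class of 1579 nuclei was selected by high Pkhd1 together with Kcnj16, Slc8a3, Meltf, Smarca1 and Efhd1. The rule asked for at least 3000 unique molecular identifiers (UMIs, the count of distinct captured RNA molecules) and at most 5% mitochondrial UMIs, which 7908 of 17169 barcodes met. It then asked for at least 3 Pkhd1 UMIs, which 4175 met, and for a sum of at least 4 UMIs over the 5 other genes. That sum had to be at least 2 times the sum of Zfp804a, Hmga2, Ndnf, Synpr, Eya4 and Kitl, and Top2a, Tpx2, Mki67 and Anln, genes of dividing cells, could give at most 3 UMIs. The class was 37.8% (exact binomial 95% interval 36.4 to 39.3) of the Pkhd1-positive nuclei and 19.97% (19.1 to 20.9) of all nuclei within the depth limits. The labels list 2 samples of 1 group titled MRD-HCC, frozen liver with HCC, and name no strain, genotype, age, tumour model or treatment. The 1 matrix used here names no sample, so all values come from 1 pool without replicates, no comparison could be tested, and all intervals cover counting error only. That the nuclei are tumour cells comes from the working name of the class, since no DNA was measured. The 16 genes of the rule are described only, and nothing is supported with them.

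Pkhd1 encodes fibrocystin, a membrane protein of the primary cilium in bile duct epithelium and kidney tubules, whose loss causes recessive polycystic disease of kidney and liver. Kcnj16 encodes a subunit of inwardly rectifying potassium channels, and Slc8a3 a sodium/calcium exchanger that moves calcium out of the cell. Meltf is melanotransferrin, an iron-binding relative of transferrin at the cell surface. Smarca1 is an ATPase of the ISWI chromatin remodellers, and Efhd1 a calcium-binding protein of mitochondria. Hepatocytes and bile duct cells arise from a shared fetal precursor, and hepatocellular carcinomas can express genes of either.

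The nuclei of a set were summed and scaled to a common total (CPM), and the class was compared with 3 other sets of the same pool. The first, called the Zfp804a type here, is the Zfp804a and Hmga2 type, 376 nuclei chosen by the mirror image of the rule. The second, ductal nuclei (105), had at least 3 Pkhd1 UMIs, at least 3 UMIs of Asz1 and Tinag and fewer than 4 of either sum. The third, hepatocyte nuclei (1200), had at most 2 Pkhd1 UMIs, at least 5 UMIs per 1000 of Cps1, Apob, Hnf4a and Fgb, under 1 per 1000 of Ccnd3 and fewer than 4 of either sum. Median depth was 8008 UMIs here, 9965.5 in the Zfp804a type, 5578 in ductal and 11484 in hepatocyte nuclei. Haemoglobin RNA, which comes from outside the nuclei, put the share of free RNA at 14.03% of UMIs here, 13.2% in the Zfp804a type, 19.5% in ductal and 12.7% in hepatocyte nuclei.

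The upstream DNA of Serpina3a, the leading gene outside the rule, and of Slc8a3 and Efhd1, from the rule itself, is shown as the regulatory sequence nearest to genes that mark the class. Each run is the 250 bases before a RefSeq transcription start (GRCm38.p6), 5′ to 3′ on the gene's strand, and none overlaps an exon of the GENCODE M21 annotation. Capitals mark TATAAA (the TATA box) or GGGCGG (the GC box) on either strand. Serpina3a lies at chr12:104112474-104112723 (plus strand), Slc8a3 at chr12:81333181-81333430 (minus strand) and Efhd1 at chr1:87264103-87264352 (plus strand).
Serpina3a: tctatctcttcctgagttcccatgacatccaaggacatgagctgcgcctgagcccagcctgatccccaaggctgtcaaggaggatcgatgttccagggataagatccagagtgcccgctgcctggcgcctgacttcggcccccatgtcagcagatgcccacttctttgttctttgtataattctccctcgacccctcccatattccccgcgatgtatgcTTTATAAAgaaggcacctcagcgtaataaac
Slc8a3: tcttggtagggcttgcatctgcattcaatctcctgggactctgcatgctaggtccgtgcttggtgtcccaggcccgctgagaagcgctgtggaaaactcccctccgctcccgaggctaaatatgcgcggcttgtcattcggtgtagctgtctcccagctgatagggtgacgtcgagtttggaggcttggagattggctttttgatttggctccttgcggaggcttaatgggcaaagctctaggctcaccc
Efhd1: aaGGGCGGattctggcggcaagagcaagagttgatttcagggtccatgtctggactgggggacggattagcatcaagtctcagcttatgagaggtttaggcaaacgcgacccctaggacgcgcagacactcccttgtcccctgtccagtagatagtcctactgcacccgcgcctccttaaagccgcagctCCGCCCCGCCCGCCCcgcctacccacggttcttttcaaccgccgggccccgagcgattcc
Serpina3a held TATAAA on both strands in overlapping positions, beginning 31 and 29 bases before the start. Of all 32851 windows of that length, 12.4% held this motif. Efhd1 held 4 GC boxes, found in 32.7% of windows, and Slc8a3 held none of the motifs searched. Of the 15 leading genes, 9 had a RefSeq window (10 windows). Beside the TATA box of Serpina3a, the GC box stood in those of Pigz and Rgcc, the hypoxia core ACGTG (16.6% of all windows) and the E-box CACGTG, which contains it (6.02%), in that of Npl, the TEAD motif GGAATG (12.6%) in that of Cdh9, and the AP-1 motif TGANTCA (6.75%) in one of Folr2. CAAGGTCA, the motif of Nr5a2 (1.33%), stood in 0 of the 10. All motifs were searched on both strands.

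The genes of the rule stood as the rule made them. Pkhd1 was at 3114 CPM (3086 to 3142), a median of 25 UMIs a nucleus, against 1039.6 CPM in the Zfp804a type, 4158 in ductal and 67.2 in hepatocyte nuclei. Slc8a3 was at 532 CPM here, 15.2 in the Zfp804a type, 29.04 in ductal and 7.04 in hepatocyte nuclei. Smarca1 was at 865 CPM here, 49.7 in the Zfp804a type, 22.7 in ductal and 5.70 in hepatocyte nuclei. Meltf was at 235 CPM, Efhd1 at 91.8 CPM and Kcnj16 at 61.1 CPM here, and the 3 stood between 3.13 (Kcnj16) and 12.1 CPM (Meltf) in the Zfp804a type. Smarca1 gave 48.5% of the UMIs of the 5-gene sum, so this sum leans on 1 gene. Of the 1579 nuclei, 160 held UMIs of 1 of the 5 genes, 342 of 2, 536 of 3, 445 of 4 and 96 of all 5. The sum ran from 4 to 142 with a median of 13, and 1229 nuclei held no UMI of the opposing 6 genes. Among Pkhd1-positive nuclei with a sum of at least 4, 103 were left out for too many UMIs of the opposing genes and 93 for dividing-cell UMIs.

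**Figure D1:**
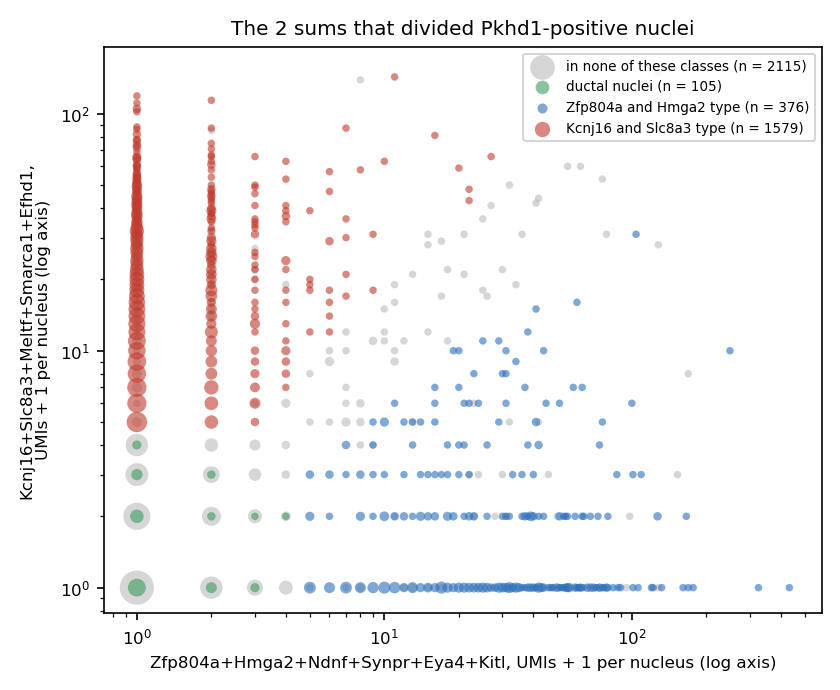
Each point is a combination of the 2 sums among the 4175 Pkhd1-positive nuclei, with UMIs plus 1 on both log axes, and larger points hold more nuclei. The 1579 selected nuclei (red) lie mostly at an opposing sum of 0, the 376 nuclei of the Zfp804a and Hmga2 type (blue) along the other axis, and the 105 ductal nuclei (green) near the origin.

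The class is a range cut from a score, with 166 nuclei at a sum of 3, just outside, and 124 at a sum of 4, just inside. Serpina3a, a serine protease inhibitor gene outside the rule, was at 252 CPM at a sum of 3 and 216 at 4, and reached 536 at 5 to 9, 715 at 10 to 19 and 1081 at 20 or more. Folr1, a folate receptor, was at 11.99 CPM at 3, 22.98 at 4 and 84.4 at 20 or more. Ndrg1, a gene known for its induction by low oxygen, was at 979.9, 1262 and 2157 CPM. Folr1 and Ndrg1 were higher at 4 than at 3 and Serpina3a was not, and all 3 were highest at 20 or more, whereas Bicc1, a gene of cystic kidney disease, kept to 558 to 735 CPM over all 6 bins from a sum of 2 up. Median depth was 6144.5 UMIs at a sum of 4 and 10164 at 20 or more, and its part in this was not tested.

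Bile duct markers were present in part. The 19 markers summed to 2373 CPM here, 2046 in the Zfp804a type, 6319 in ductal and 1085 in hepatocyte nuclei. Of the 19, 17 lay above what free RNA would give, among them Glis3 (399 CPM), Sox9 (102 CPM) and Bicc1 (696 CPM), with 7.85, 10.2 and 21.7 CPM from free RNA. Krt19 and Krt7, keratins that define mature bile duct epithelium, were at 1.72 and 2.11 CPM, with 2.46 and 0.823 from free RNA. Ductal nuclei held few of them as well, at 10.1 and 26.5 CPM from 8 and 21 UMIs. In the Zfp804a type they were at 32.3 and 1.76 CPM. Gpc3, an oncofetal marker of HCC, was at 223 CPM against 9.55 from free RNA, while Afp was at 8.49 against 4.65. The 14 hepatocyte markers summed to 7406 CPM, with 6779 from free RNA, against 16843 in hepatocyte nuclei. Cps1, Apob, Hnf4a and Fgb are among the 14 and chose the hepatocyte nuclei, so that sum was high partly by construction. Of the 10 others, 0 were at least 2-fold higher and 4 lower than in hepatocyte nuclei, beside 15% and 12.1% of all genes. Of the 14, 9 lay above the free RNA level, among them Cps1 at 608 CPM with 178 from free RNA. Without 100 nuclei rich in hepatocyte RNA, which Cps1 itself helped to choose, Cps1 was at 256.5 CPM. The sums of vascular and immune markers were lower here than in the Zfp804a type. Endothelial markers summed to 167 CPM here and 461 in the Zfp804a type, sinusoidal endothelial markers to 175 CPM here and 252 in the Zfp804a type, macrophage markers to 184 CPM here and 256 in the Zfp804a type and Kupffer cell markers to 44.1 CPM here and 73.7 in the Zfp804a type. T cell markers summed to 42.4 CPM here and 103 in the Zfp804a type, and B cell markers to 67.6 CPM here and 142 in the Zfp804a type. Flt1, an endothelial receptor, was at 29.3 CPM here and 229 in the Zfp804a type, and Bank1, of B cells, was at 17.6 CPM here and 70 in the Zfp804a type, which made much of the difference of their sums. Of the members, 2 of 10 macrophage and 2 of 8 B cell markers were higher here than in the Zfp804a type. No marker of these lists was at 0 in the class, and their part in the comparison of the 2 types was not tested.

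Outside the rule, 15 genes led the class, ranked by their smallest ratio against the 3 other sets. Serpina3a (chromosome 12, 104112724 to 104121896, mm10) was at 770.2 CPM (756 to 784) here, 45.95 in the Zfp804a type, 21.5 in ductal and 9.35 in hepatocyte nuclei, 16.8-fold (14.7 to 19.1) higher than in the Zfp804a type. With nuclei thinned to 3000 UMIs it was seen in 47.5% of nuclei here (60.4% at full depth) and in 4.25% of hepatocyte nuclei (11.1%). Its relatives on chromosome 12 differed. Serpina5, 6.59 kb to its left, was at 12.6 CPM here and 2.74 in the Zfp804a type, with a mean under the 10 CPM asked of a counted gene. Serpina3k was at 222 CPM here and 229.7 in the Zfp804a type, and Serpina3n at 67.3 CPM here and 68.4 in the Zfp804a type. Reads of such near copies may have been split among them. Npl, a lyase that breaks down sialic acid (chromosome 1, 153503015 to 153550045), was at 314 CPM here, 36.2 in the Zfp804a type, 21.5 in ductal and 5.18 in hepatocyte nuclei. It was seen in 53.96% of nuclei here at 3000 UMIs (74.4% at full depth) and in 2.33% of hepatocyte nuclei (6.25%). Laptm4b, a membrane protein of lysosomes, was at 305 CPM here, 58.1 in the Zfp804a type, 64.4 in ductal and 31.4 in hepatocyte nuclei. All 3 were lowest in hepatocyte nuclei.

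The folate receptor genes Folr1 and Folr2, neighbours 1.14 kb apart on chromosome 7, were both among the leading genes. Folr1 was at 62.7 CPM (58.9 to 66.8) here, 2.93 in the Zfp804a type and 0.320 in hepatocyte nuclei. Ductal nuclei held 0 Folr1 UMIs of 791898, which makes the class at least 16.6-fold higher, with 3 counts over the set as the floor. Folr2 was at 25.9 CPM here, 3.71 in the Zfp804a type, 3.79 in ductal and 1.15 in hepatocyte nuclei. Anapc15, which overlaps Folr1 on the opposite strand, was also highest in this class, at 404 CPM here, 147 in the Zfp804a type, 27.8 in ductal and 10.5 in hepatocyte nuclei. Overlapping genes may share reads, since no source used here says whether strand was counted.

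Akr1cl, an aldo-keto reductase gene on chromosome 1, was at 38.4 CPM here, 1.96 in the Zfp804a type, 2.53 in ductal and 0.448 in hepatocyte nuclei. Its relative Akr1c19 on chromosome 13 was at 128 CPM here and 18.2 in the Zfp804a type, whereas Akr1c6 was at 143 CPM here and 169 in the Zfp804a type, so the family was not uniform. Pkd2l1, a cation channel related to polycystin 2, was at 25.4 CPM here, 2.74 in the Zfp804a type and 1.26 in ductal nuclei. Hepatocyte nuclei held 0 of its UMIs, which makes the class at least 132-fold higher. Polycystin 2 itself, Pkd2, did not share this, at 41.5 CPM here, 32.1 in the Zfp804a type, 134 in ductal and 4.61 in hepatocyte nuclei. Pigz, an enzyme that builds glycolipid anchors, lies 34.8 kb from the rule's gene Meltf on chromosome 16, and was at 57.9 CPM here, 7.43 in the Zfp804a type, 2.53 in ductal and 0.768 in hepatocyte nuclei.

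The remaining leading genes stood under 100 CPM. Aebp1, a matrix-associated protein related to carboxypeptidases, was at 65.5 CPM here, 10.9 in the Zfp804a type, 7.58 in ductal and 3.14 in hepatocyte nuclei. Cpa6, a secreted carboxypeptidase, was at 46.8 CPM here, 7.04 in the Zfp804a type and 0 UMIs in ductal nuclei, at least 12.3-fold higher than there. Cdh9, a cadherin, was at 25.4 CPM here, 1.56 in the Zfp804a type, 3.79 in ductal and 0.768 in hepatocyte nuclei. All 3 encode proteins that work at or outside the cell surface. Rgcc, a cell cycle regulator, was at 48.7 CPM here, 4.30 in the Zfp804a type, 2.53 in ductal and 0.704 in hepatocyte nuclei. Olfr617, annotated as an olfactory receptor, was at 36.02 CPM here and 1.76 in the Zfp804a type. The RNA AC106834.1 was at 97.3 CPM here and 13.5 in the Zfp804a type. Tchh, which encodes trichohyalin of hair follicles, was at 65.8 CPM here and 13.3 in the Zfp804a type, and overlaps Gm37245 on the opposite strand, which was at 1081 CPM here and 62.4 in the Zfp804a type. Of 9273 genes that passed the level filter in all 3 comparisons, 125 were at least 2-fold higher in all 3 and 20 at least 2-fold lower.

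**Figure D2:**
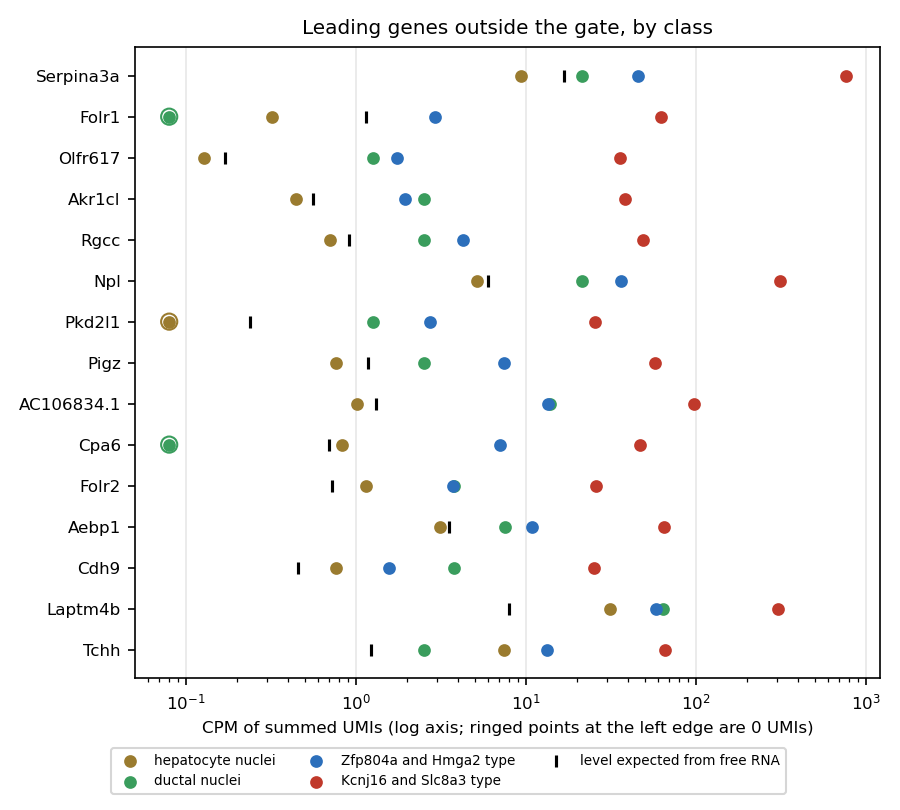
Summed UMIs of the 15 leading genes in CPM on a log axis, with 1 point per set of nuclei and a black tick for the level that free RNA would give in the selected class. Red points (the selected class) lie right of all others by construction, between 25.4 and 770.2 CPM, and 3 ringed points mark 0 UMIs (Folr1 and Cpa6 in ductal, Pkd2l1 in hepatocyte nuclei).

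Against the Zfp804a type, the opposing type by the rule, the class was higher in Dclk1, Rnf180, Sema5a, Vil1 and Abi3bp beside the leading genes, and lower in Scel, Map1b and Tnfrsf23. Of 9973 genes with a mean of at least 10 CPM, 280 (2.81%) were at least 2-fold higher here on the log2(CPM + 1) scale and 337 (3.38%) at least 2-fold lower, with a median log2 ratio over all genes of 0.03. Dclk1, a microtubule-associated kinase known as a marker of tuft cells, was at 389.9 CPM (380.2 to 399.8) here and 28.4 in the Zfp804a type, 13.8-fold (11.7 to 16.3) higher. Rnf180, an E3 ubiquitin ligase, was at 306 CPM here and 29.5 in the Zfp804a type. Sema5a, a semaphorin of axon guidance, was at 420.1 CPM here and 48.1 in the Zfp804a type, but at 379 CPM in ductal nuclei, close to the level here. None of these 3 is part of the rule. Vil1, the actin bundler villin of brush borders, was at 76.6 CPM here and 7.63 in the Zfp804a type. Abi3bp, a matrix protein, was at 199 CPM here and 21.7 in the Zfp804a type. Kcnip4, a potassium channel partner, was at 110.3 CPM here and 13.3 in the Zfp804a type, but its UMIs came from few nuclei, as given with the spread among members.

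Among the genes lower than in the Zfp804a type, Scel, sciellin of stratified epithelium, was at 4.85 CPM here and 131 in the Zfp804a type, 26.9-fold (21.2 to 34.6) lower. Map1b, a microtubule-associated protein of neurons, was at 6.77 CPM here and 140.4 in the Zfp804a type, and Nav3, a neuron navigator, was at 6.96 CPM here and 100.3 in the Zfp804a type. Sytl2, a synaptotagmin-like protein, was at 3.002 CPM here and 71.95 in the Zfp804a type, and Syt17, a synaptotagmin, was at 2.11 CPM here and 46.3 in the Zfp804a type. Tnfrsf23, a decoy receptor, was at 18.1 CPM here and 388 in the Zfp804a type. Slc12a8, a solute carrier, was at 8.24 CPM here and 144 in the Zfp804a type. Nos1, the neuronal nitric oxide synthase, was at 1.21 CPM here and 31.5 in the Zfp804a type, and Sfrp4, a secreted Wnt antagonist, was at 1.09 CPM here and 30.1 in the Zfp804a type. Of the 12 lowest genes, 11 were at under 10 CPM in this class. Krt19, a bile duct keratin, was at 1.72 CPM here and 32.3 in the Zfp804a type.

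A row of 6 neighbouring interferon-inducible genes, the Ifi200 cluster on chromosome 1 (173723427 to 173982744, mm10), was the longest run of consecutive expressed genes past 2-fold in the comparison with the Zfp804a type. Their median log2 ratio was -2.66. Ifi207 was at 18.97 CPM here and 206 in the Zfp804a type, Ifi203 at 17.9 CPM here and 119.9 in the Zfp804a type and Mndal at 22.1 CPM here and 128 in the Zfp804a type. Aim2, of the same cluster, was at 7.60 CPM here and 10.8 in the Zfp804a type. These genes are close copies and may share reads. The count of genes lower than in the Zfp804a type became 524 when 100 nuclei rich in hepatocyte RNA were left out, and thinning all nuclei to 3000 UMIs gave 469 higher and 509 lower.

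Against ductal nuclei, the class was higher in Grm3, Kcnk3, Soat1 and Chst11 and lower in Pdgfd, Cftr and Hnf4g. Of 10037 genes, 617 (6.15%) were at least 2-fold higher and 732 (7.29%) at least 2-fold lower, with a median of -0.02. Grm3, a metabotropic glutamate receptor, was at 130.0 CPM (124 to 136) here and at 0 UMIs in ductal nuclei, at least 34.3-fold higher. Kcnk3, a background potassium channel, was at 187 CPM here and 2.53 in ductal nuclei, 73.9-fold (20.4 to 610.4) higher. Soat1, which makes cholesterol esters, was at 239 CPM here and 6.31 in ductal nuclei. Chst11, a chondroitin sulfotransferase, was at 359.5 CPM here and 10.1 in ductal nuclei. In the Zfp804a type Chst11 was at 342 and Soat1 at 178 CPM, close to the levels here, while Grm3 (49.5) and Kcnk3 (83.3) lay between the class and ductal nuclei. Mreg, melanoregulin of pigment granule transport, was at 898 CPM here, 299.5 in the Zfp804a type, 51.8 in ductal and 43.8 in hepatocyte nuclei. Aox4, an aldehyde oxidase, was at 78.8 CPM here and 2.53 in ductal nuclei, and Syt13, a synaptotagmin, was at 56.3 CPM here and 1.26 in ductal nuclei.

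Lower than in ductal nuclei, Pdgfd, a platelet-derived growth factor, was at 60.6 CPM here and 2225 in ductal nuclei, 36.7-fold (33.9 to 39.8) lower. Cftr, the chloride channel of secreting bile duct cells, was at 10.3 CPM here and 263 in ductal nuclei, 25.4-fold (20.6 to 31.4) lower. Hnf4g, a nuclear receptor of gut and kidney epithelium, was at 5.88 CPM here and 181 in ductal nuclei. These 3 were low in the Zfp804a type as well, at 74.1, 4.30 and 7.63 CPM. Sftpd, a surfactant protein, was at 2.49 CPM here and 79.6 in ductal nuclei. Rassf9, of the Ras association family, was at 4.53 CPM here and 167 in ductal nuclei. Adgrg6, an adhesion receptor, was at 2.68 CPM here and 70.7 in ductal nuclei. Of the 12 lowest genes, Lce1a2 and Lce1b, of cornified envelopes, turned to the other direction in a stricter ductal set, and Lce1a2 had been seen in 1.91% of ductal nuclei at 3000 UMIs. That stricter set, with at least 6 UMIs of Asz1 and Tinag, held 16 nuclei and gave 1437 genes higher and 1187 lower.

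**Figure D3:**
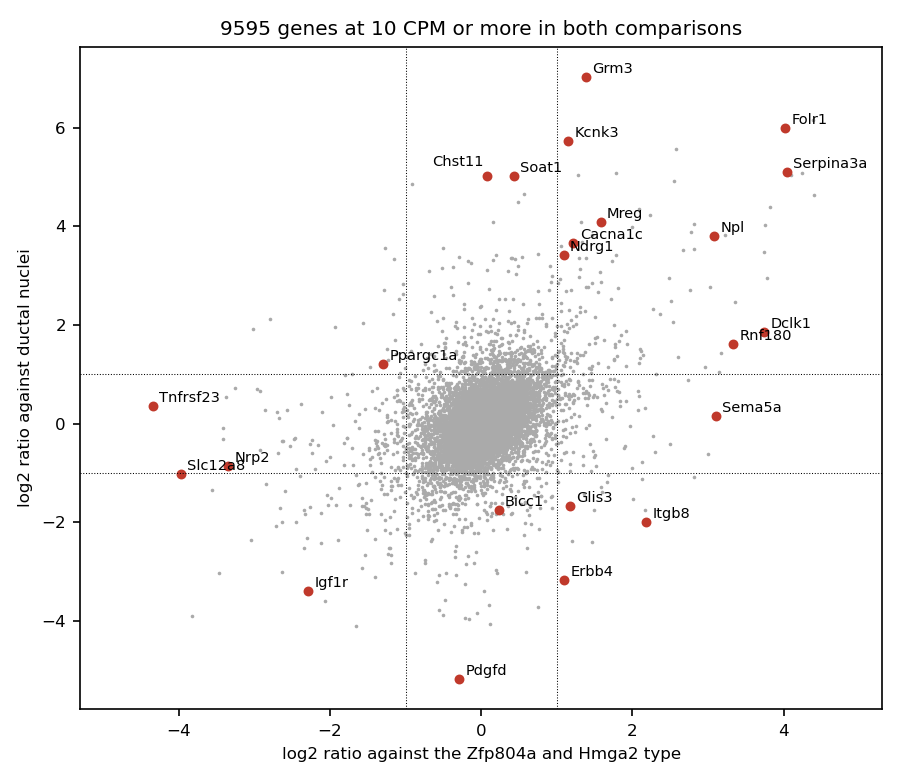
Log2 ratios of 9595 genes outside the rule against the Zfp804a and Hmga2 type (horizontal) and against ductal nuclei (vertical), with a pseudocount of 1 CPM and dotted lines at 2-fold. Serpina3a, Folr1 and Npl lie at upper right, Grm3 and Kcnk3 high above, Pdgfd far below and Tnfrsf23 and Slc12a8 at left; the 2 axes share the selected class, so no relation between them is read.

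Against hepatocyte nuclei, the class was higher in Galnt3, Ahnak2, Enah and Ppm1h and lower in B3galt1, Kyat3 and C4a. Of 9698 genes, 1453 (15%) were at least 2-fold higher and 1175 (12.1%) at least 2-fold lower. The median over all genes was 0.16, the level to which each log2 ratio of this comparison should be held. Galnt3, which starts O-linked glycans, was at 258 CPM here and 2.62 in hepatocyte nuclei. Enah, an actin regulator, was at 625 CPM here and 8.13 in hepatocyte nuclei, and Tmod1, an actin-capping tropomodulin, was at 324 CPM here and 4.48 in hepatocyte nuclei. Ppm1h, a phosphatase, was at 1368 CPM here and 21.8 in hepatocyte nuclei. Ahnak2, a large scaffold-like protein, was at 432 CPM here and 5.12 in hepatocyte nuclei, and Gxylt2, a Notch-modifying xylosyltransferase, was at 465 CPM here and 7.36 in hepatocyte nuclei. The Zfp804a type also held these, with Gxylt2 at 464, Ahnak2 at 315, Ppm1h at 553 and Enah at 209 CPM.

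Among genes lower than in hepatocyte nuclei, B3galt1, a galactosyltransferase, was at 655 CPM here and 4269 in hepatocyte nuclei. Kyat3, a kynurenine aminotransferase, was at 128 CPM here and 793 in hepatocyte nuclei, and Ido2, of tryptophan breakdown, was at 36.7 CPM here and 226 in hepatocyte nuclei. C4a, a complement gene, was at 36.02 CPM here and 237 in hepatocyte nuclei. The 12 lowest and 12 highest were ranked on the log2(CPM + 1) scale, and their folds are given without the added 1. The 12 lowest ran from 5.89-fold (Arhgef26) to 8.68-fold (Sult5a1) lower, whereas the 12 highest ran from 62.7-fold (Ppm1h) to 135-fold (Grm3) higher. Some genes near 0 CPM in hepatocyte nuclei had larger folds, such as Olfr617 at 281-fold. Free RNA held B3galt1 at 97.8 CPM by the haemoglobin share. Without the 100 nuclei rich in hepatocyte RNA, B3galt1 was at 298 CPM in the class. The part of other hepatocyte RNA in these values was not tested.

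Since the rule holds a potassium channel subunit, other potassium and anion channel genes were counted from a list that does not hold all of them. Of its 22 genes, 9 reached 10 CPM in the comparison with the Zfp804a type, with 1 at least 2-fold higher and 2 lower (median -0.32). In that comparison 2.81% of all genes were higher and 3.38% lower. The higher one on the list was Kcnip4. The lower were Kcnn4, a calcium-activated channel, which was at 3.51 CPM here and 31.3 in the Zfp804a type, and Ano1, a calcium-activated chloride channel, which was at 9.26 CPM here and 22.7 in the Zfp804a type. Against ductal nuclei 3 higher and 4 lower of 9 were past 2-fold, beside 6.15% and 7.29% of all genes. Kcnk5, a pH-sensitive background channel, was at 227 CPM here, 145 in the Zfp804a type, 78.3 in ductal and 30.5 in hepatocyte nuclei. Kcnk3, another background channel and not on the list, was at 187 CPM here and 83.3 in the Zfp804a type, 2.24-fold (2.02 to 2.49) higher. Kcnj10, a known channel partner of Kcnj16, was at 1.09 CPM here and 1.17 in the Zfp804a type, so this partner was close to 0 in both types.

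Calcium genes were counted beside Slc8a3. Of 23 at 10 CPM, 1 was at least 2-fold higher and 1 lower than in the Zfp804a type (median -0.26), against 2.81% and 3.38% of all genes. The higher one was Cacna1c, the pore of the L-type calcium channel, at 672 CPM here, 287 in the Zfp804a type, 51.8 in ductal and 13.3 in hepatocyte nuclei. The lower one was the exchanger Slc24a3, which was at 4.15 CPM here and 18.8 in the Zfp804a type. The relatives of Slc8a3 did not follow it. Slc8a1 was at 89.1 CPM here and 265 in hepatocyte nuclei, and Slc8b1, the mitochondrial exchanger, was at 61.4 CPM here and 62.2 in the Zfp804a type. The plasma membrane calcium pump Atp2b1 was at 439 CPM here and 664 in the Zfp804a type, and the receptor of calcium stores Itpr1 was at 353 CPM here and 261 in the Zfp804a type. Among genes of sodium, bicarbonate and chloride transport, 0 higher and 0 lower of 8 were past 2-fold against the Zfp804a type. Against ductal nuclei 0 higher and 5 lower of 11 were, beside 6.15% and 7.29% of all genes. Those lower than in ductal nuclei included the sodium-glucose carrier Slc5a1, which was at 14.2 CPM here and 79.6 in ductal nuclei, and carbonic anhydrase Car2, which was at 2.23 CPM here and 23.99 in ductal nuclei.

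Iron genes were read because of Meltf. Of 14 members at 10 CPM, 2 were at least 2-fold higher and 1 lower than in the Zfp804a type (median -0.01), against 2.81% and 3.38% of all genes. Slc40a1, the iron exporter ferroportin, was at 250.2 CPM here, 116 in the Zfp804a type, 77.03 in ductal and 88.97 in hepatocyte nuclei. Slc11a2, the iron importer DMT1, was at 182 CPM here, 63.9 in the Zfp804a type, 58.1 in ductal and 49.5 in hepatocyte nuclei. Both were highest in this class among the 4 sets. Bmp6, the signal that induces hepcidin, was the lower one and was at 88.2 CPM here and 203 in the Zfp804a type. The transferrin receptor Tfrc was at 80.7 CPM here and 79.2 in the Zfp804a type. Hamp, hepcidin itself, was at 501 CPM here, 2589.5 in hepatocyte nuclei and 189.6 by free RNA alone, and at 290.0 CPM without the nuclei rich in hepatocyte RNA.

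Chromatin remodellers other than Smarca1 were close to even. Of 21 genes, 0 were 2-fold higher and 0 lower than in the Zfp804a type (median 0.09), beside 2.81% and 3.38% of all genes. The other ISWI ATPase, Smarca5, was at 91.01 CPM here, 85.6 in the Zfp804a type, 80.8 in ductal and 74.2 in hepatocyte nuclei. Bptf, the large subunit that pairs with Smarca1 in the NURF complex, was at 234 CPM here, 199 in the Zfp804a type, 206 in ductal and 159 in hepatocyte nuclei. The histone-binding subunit Rbbp7 was at 71.98 CPM here, 46.5 in the Zfp804a type, 30.3 in ductal and 26.2 in hepatocyte nuclei. Cecr2, an ISWI partner, was at 50.2 CPM here, 63.9 in the Zfp804a type, 65.7 in ductal and 276 in hepatocyte nuclei.

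Genes of cystic disease and cilia were 2-fold higher for 2 and lower for 0 of 18 against the Zfp804a type, and higher for 0 and lower for 8 of 19 against ductal nuclei, where 6.15% of all genes were higher and 7.29% lower. The higher were the zinc-finger factors Glis3, which was at 399 CPM here and 176 in the Zfp804a type, and Glis2, which was at 28.2 CPM here and 13.5 in the Zfp804a type. Both were under 2-fold under at least 1 alternative. Among liver transcription factors 1 higher and 1 lower of 21 were past 2-fold against the Zfp804a type, beside 2.81% and 3.38% of all genes. The higher one was Nr5a2, a nuclear receptor of bile acid control, at 792 CPM here, 307 in the Zfp804a type, 288 in ductal and 285 in hepatocyte nuclei, which is 2.58-fold (2.45 to 2.72) higher than in the Zfp804a type. Foxa2, the lower one, was at 10.9 CPM here and 33.2 in the Zfp804a type. Against ductal nuclei 1 higher and 8 lower of 23 were past 2-fold, among the lower Onecut2, which was at 130.2 CPM here and 582 in ductal nuclei, and Ehf, which was at 3.07 CPM here and 26.5 in ductal nuclei. Sox4, a progenitor factor, was at 75.7 CPM here, 66.5 in the Zfp804a type, 47.99 in ductal and 5.18 in hepatocyte nuclei.

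Glycolysis genes were higher than in hepatocyte and ductal nuclei and close to the level of the Zfp804a type. Of 16 genes, 13 were at least 2-fold higher and 0 lower than in hepatocyte nuclei, beside 15% of all genes that were higher. Against ductal nuclei 7 higher and 0 lower of 16 were past 2-fold, and against the Zfp804a type 0 higher and 1 lower of 17. The shares of all genes were 6.15% higher and 7.29% lower against ductal nuclei, and 2.81% and 3.38% against the Zfp804a type. Hexokinase 2, Hk2, was at 189 CPM here, 246 in the Zfp804a type, 30.3 in ductal and 5.95 in hepatocyte nuclei. The platelet-type phosphofructokinase Pfkp was at 279.7 CPM here, 284 in the Zfp804a type, 112 in ductal and 9.54 in hepatocyte nuclei. Pyruvate kinase Pkm was at 184 CPM here, 229.7 in the Zfp804a type, 46.7 in ductal and 18.6 in hepatocyte nuclei. All 3 were lower in ductal and lowest in hepatocyte nuclei. Hk1, the other hexokinase and the 1 lower member against the Zfp804a type, was at 76.1 CPM here and 158 in the Zfp804a type, and was under 2-fold without the nuclei rich in hepatocyte RNA. Ppargc1a, the coactivator that drives mitochondrial genes, was at 1017 CPM (1001 to 1032), 2.46-fold (2.40 to 2.52) lower than in the Zfp804a type (2502 CPM). It was at 438 CPM in ductal and 85.5 in hepatocyte nuclei, so the class lay between. The lipid receptor Pparg was at 50.1 CPM here and 97.2 in the Zfp804a type.

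Hypoxia genes went both ways against the Zfp804a type, with 1 higher and 3 lower of 17 past 2-fold (median -0.23). Of all genes, 2.81% were higher and 3.38% lower there. Against ductal nuclei 3 higher and 0 lower of 14 were past 2-fold, beside 6.15% and 7.29% of all genes. Against hepatocyte nuclei it was 9 higher and 2 lower of 13, beside 15% and 12.1%. Ndrg1 was at 1901 CPM (1879 to 1923) here, 891 in the Zfp804a type, 177 in ductal and 36.4 in hepatocyte nuclei, 2.13-fold (2.07 to 2.20) higher than in the Zfp804a type. The oxygen sensor Egln3, a target of the same pathway, was at 63.4 CPM here and 142 in the Zfp804a type. The peptide Adm was at 8.56 CPM here and 26.4 in the Zfp804a type, and the collagen hydroxylase Plod2 was at 3.07 CPM here and 21.9 in the Zfp804a type. Ndrg1 was thus the 1 member past 2-fold higher. Vegfa, the vascular growth factor, was at 302 CPM here and 331 in the Zfp804a type. The factor Hif1a was at 286 CPM here, 352 in the Zfp804a type, 116 in ductal and 88.5 in hepatocyte nuclei.

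**Figure D4:**
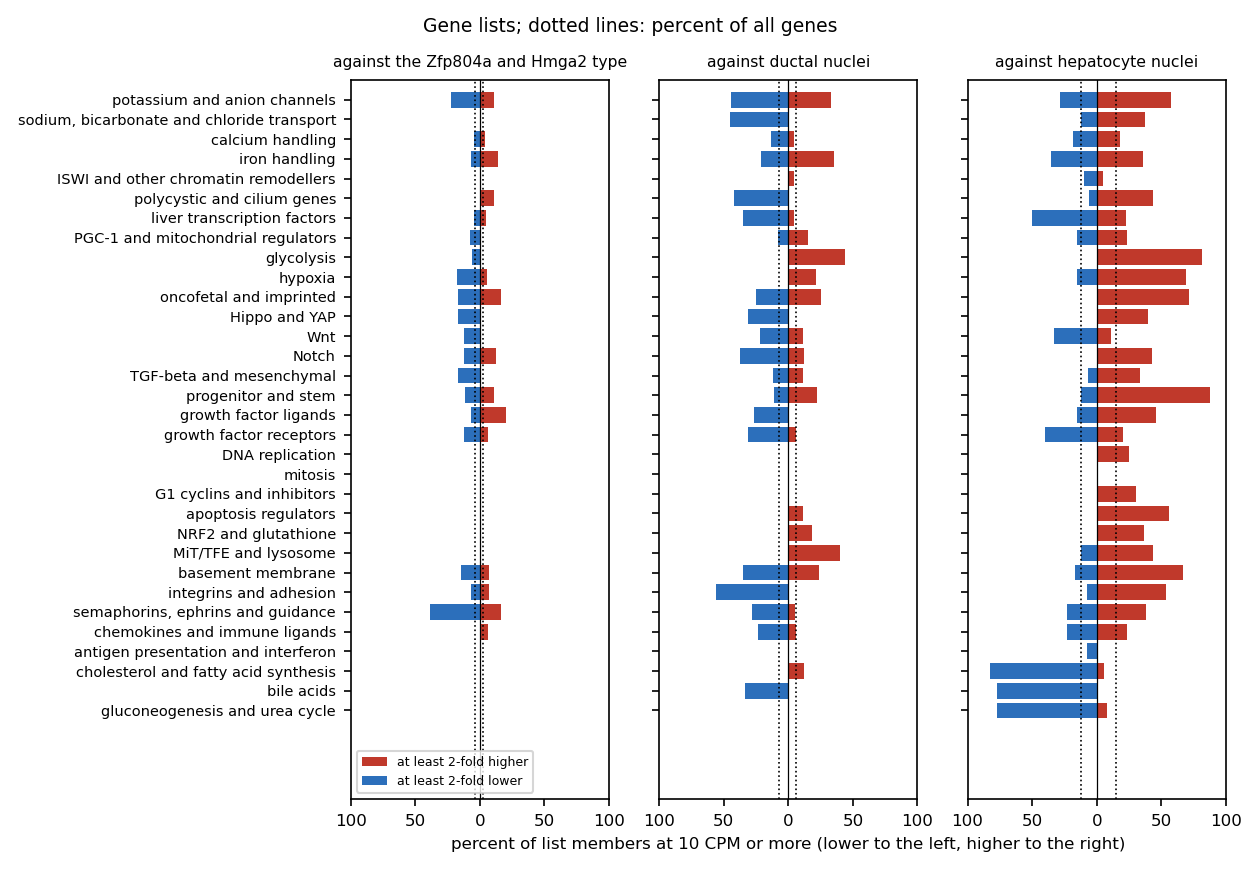
Bars give, for 32 gene lists, the percent of members at 10 CPM or more that were at least 2-fold higher (red, right) or lower (blue, left) against each of the 3 other sets, with dotted lines at the percent of all genes. Against the Zfp804a and Hmga2 type the guidance list reaches furthest left with 7 of 18 members lower, and against hepatocyte nuclei glycolysis (13 of 16 higher) and cholesterol and fatty acid synthesis (14 of 17 lower) reach far, while the mitosis list rests on 1 member.

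Genes of axon guidance, which also act in epithelia and vessels, were split between the 2 types. Of 18 members, 3 were at least 2-fold higher and 7 lower than in the Zfp804a type, with a median of -0.45 beside 0.03 over all genes. The shares over all genes were 2.81% higher and 3.38% lower. Higher were Sema5a, the plexin Plxnb1, which was at 55.95 CPM here and 24.1 in the Zfp804a type, and the receptor Ephb2, which was at 14.6 CPM here and 6.45 in the Zfp804a type. Lower was the co-receptor Nrp2, which was at 19.03 CPM here and 204 in the Zfp804a type, while Nrp1, the other neuropilin, was at 130.1 CPM here and 189.9 in the Zfp804a type. The ephrin Efna5 was at 50.5 CPM here and 333 in the Zfp804a type, and Efnb2 was at 15.8 CPM here and 54.2 in the Zfp804a type. The semaphorin Sema3e was at 3.07 CPM here and 24.2 in the Zfp804a type. The remaining lower members were Epha7, Robo1 and Ntn4, at 10.3, 23.2 and 6.90 CPM here.

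Among basement membrane genes, 1 higher and 2 lower of 14 were past 2-fold against the Zfp804a type and 4 higher and 6 lower of 17 against ductal nuclei. Over all genes the shares were 2.81% higher and 3.38% lower against the Zfp804a type, and 6.15% and 7.29% against ductal nuclei. Lamb1, a laminin chain, was at 103 CPM here, 23.3 in the Zfp804a type, 40.4 in ductal and 6.27 in hepatocyte nuclei. Col4a3, a collagen chain, was at 5.43 CPM here and 16.03 in the Zfp804a type. The collagen chains Col4a5 and Col4a6, a head-to-head pair on the X chromosome, were both higher than in ductal nuclei. Col4a5 was at 407 CPM here, 475 in the Zfp804a type, 186 in ductal and 9.47 in hepatocyte nuclei, and Col4a6 at 222 CPM here, 318 in the Zfp804a type, 23.99 in ductal and 3.14 in hepatocyte nuclei. Beside the same shares, 1 higher and 1 lower of 14 adhesion genes were past 2-fold against the Zfp804a type. Against ductal nuclei 0 higher and 9 lower of 16 were. The integrin Itgb8, which frees latent TGF-beta, was at 96.3 CPM here, 20.5 in the Zfp804a type, 385 in ductal and 2.37 in hepatocyte nuclei. E-cadherin, Cdh1, was at 55.7 CPM here, 83.1 in the Zfp804a type, 253 in ductal and 7.30 in hepatocyte nuclei, and Cdh6 at 159 CPM here, 249.9 in the Zfp804a type, 814 in ductal and 4.03 in hepatocyte nuclei. The 3 were thus lower than in ducts and above hepatocyte nuclei. Cadm1, an adhesion protein, was at 93.3 CPM here and 227 in the Zfp804a type.

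Of growth factor ligands, 3 higher and 1 lower of 15 were past 2-fold against the Zfp804a type. Over all genes the shares were 2.81% higher and 3.38% lower. Il34, a macrophage growth factor, was at 107 CPM here and 34.8 in the Zfp804a type, neuregulin Nrg1 was at 178 CPM here and 81.1 in the Zfp804a type, and Pdgfb was at 68.8 CPM here and 30.1 in the Zfp804a type. Amphiregulin, Areg, was lower and was at 6.71 CPM here and 19.4 in the Zfp804a type. Of receptors, 1 higher and 2 lower of 16 were past 2-fold, beside the same shares. Igf1r, the receptor of insulin-like growth factors, was at 51.9 CPM here, 258 in the Zfp804a type, 554 in ductal and 15.6 in hepatocyte nuclei. Kit, the receptor of the product of Kitl, a gene of the opposing sum, was at 8.81 CPM here and 19.9 in the Zfp804a type. Erbb4, a neuregulin receptor, was at 155 CPM here, 71.95 in the Zfp804a type, 1403 in ductal and 4.48 in hepatocyte nuclei, and its log2 ratio to the Zfp804a type was under 1 after thinning. Egfr was at 1589 CPM here, 2309 in the Zfp804a type, 1730.0 in ductal and 9109 in hepatocyte nuclei. Levels of Igf1r and Erbb4 were thus far lower here than in ductal nuclei.

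Among Notch genes 1 higher and 1 lower of 8 were past 2-fold against the Zfp804a type. In this comparison, to which the other counts of this paragraph also belong, 2.81% of all genes were higher and 3.38% lower. The ligand Jag1 was at 80.3 CPM here, 26 in the Zfp804a type, 197 in ductal and 8.26 in hepatocyte nuclei. The coactivator Maml2 was at 68.02 CPM here, 171 in the Zfp804a type, 245 in ductal and 32.5 in hepatocyte nuclei, and Maml3 at 1288 CPM here, 838 in the Zfp804a type, 296 in ductal and 111 in hepatocyte nuclei. Of Wnt genes 0 higher and 1 lower of 8 were past 2-fold, the lower one being the stem cell receptor Lgr5, which was at 51.7 CPM here and 172 in the Zfp804a type. Of Hippo genes 0 higher and 2 lower of 12 were. The YAP target Ccn2 was at 10.6 CPM here and 75.3 in the Zfp804a type and Axl was at 6.71 CPM here and 34.8 in the Zfp804a type, while Ankrd1, another YAP target, was at 253 CPM here, 217 in the Zfp804a type, 184 in ductal and 6.27 in hepatocyte nuclei. Of TGF-beta and mesenchymal genes 0 higher and 3 lower of 18 were past 2-fold. The lower ones were Ltbp1, which was at 4.15 CPM here and 19.6 in the Zfp804a type, Smad7, which was at 38 CPM here and 81.3 in the Zfp804a type, and Tgfbr3, which was at 20.2 CPM here and 44.8 in the Zfp804a type and was under 2-fold in at least 1 alternative.

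Of oncofetal and imprinted genes, 1 higher and 1 lower of 6 were past 2-fold against the Zfp804a type. All counts of this paragraph stand beside 2.81% of all genes higher and 3.38% lower in that comparison. Gpc3, a heparan sulfate proteoglycan, was at 223 CPM here, 49.1 in the Zfp804a type, 754 in ductal and 9.03 in hepatocyte nuclei. Igf2bp2, an RNA-binding protein of fetal growth, was at 162 CPM here, 363 in the Zfp804a type, 15.2 in ductal and 23.1 in hepatocyte nuclei. Peg3, an imprinted zinc-finger gene, was at 1314 CPM here, 1463 in the Zfp804a type, 604 in ductal and 32.1 in hepatocyte nuclei. Gpc3 was thus higher in ducts and Igf2bp2 in the Zfp804a type than in this class. Of immune ligands 1 higher and 0 lower of 15 were past 2-fold. The higher one was Cxcl16, which was at 14.9 CPM here and 6.84 in the Zfp804a type and was under 2-fold in at least 1 alternative. Cd274 (PD-L1) was at 27.9 CPM here and 13.5 in the Zfp804a type, just under 2-fold with the pseudocount. Of antigen presentation and interferon genes, which do not include the Ifi200 cluster, 0 higher and 0 lower of 13 were past 2-fold.

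The rule kept dividing-cell genes low, and of further replication genes 0 higher and 0 lower of 5 were past 2-fold against the Zfp804a type. Ccnd3, cyclin D3, was at 4280.5 CPM (4248 to 4313) here, 7144 in the Zfp804a type, 5046 in ductal and 165 in hepatocyte nuclei, whose rule limits it. The tumour suppressor Trp53 was at 70.95 CPM here and 36.6 in the Zfp804a type, and Cdk6, a partner of cyclin D, was at 112 CPM here and 197 in the Zfp804a type. Of apoptosis regulators 0 higher and 0 lower of 9 were past 2-fold against the Zfp804a type and 5 higher and 0 lower of 9 against hepatocyte nuclei. Against hepatocyte nuclei 15% of all genes were higher and 12.1% lower, and against the Zfp804a type 2.81% and 3.38%. Bcl2, which blocks apoptosis, was at 105 CPM here, 105 in the Zfp804a type, 154 in ductal and 12.9 in hepatocyte nuclei. Of lysosome genes 6 higher and 0 lower of 15 were past 2-fold against ductal nuclei, against 6.15% and 7.29% of all genes, and 0 higher and 0 lower of 15 against the Zfp804a type. Their regulator Tfeb was at 1687 CPM here, 2033 in the Zfp804a type, 693 in ductal and 50.3 in hepatocyte nuclei. Cathepsin B, Ctsb, was at 343 CPM here and 126 in ductal nuclei, and cathepsin L, Ctsl, was at 448 CPM here and 176 in ductal nuclei.

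Hepatocyte metabolism was lower here than in hepatocyte nuclei. Of cholesterol and fatty acid synthesis genes 1 higher and 14 lower of 17 were past 2-fold (median -1.60), of bile acid genes 0 higher and 10 lower of 13 (-1.79), and of gluconeogenesis and urea cycle genes 1 higher and 10 lower of 13 (-1.79). Of all genes, 15% were at least 2-fold higher and 12.1% lower, with a median of 0.16. Against the Zfp804a type all 3 lists had 0 members past 2-fold, where only 2.81% of all genes were higher and 3.38% lower. Of bile acid genes 0 higher and 4 lower of 12 were past 2-fold against ductal nuclei, beside 6.15% and 7.29% of all genes. The higher lipid gene was Scd2, a fatty acid desaturase of chromosome 19, at 129 CPM here, 87.4 in the Zfp804a type, 37.9 in ductal and 9.35 in hepatocyte nuclei. Its neighbour Scd3, beside the leading gene Pkd2l1, was at 33.6 CPM here and 11.5 in the Zfp804a type.

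By the variance over the mean, which can grow with a gene's level, the members differed most in Malat1, in hepatocyte genes and in a few others. Malat1 stood at 56.2 with a mean of 328 UMIs after thinning. The top 10% of nuclei held only 18.3% of its UMIs, so Malat1 was not concentrated in few members. With each nucleus thinned to 3000 UMIs, the variance over the mean had a median of 1.10 over 5329 genes with a mean of at least 0.1 UMI. Serpina3a stood at 8.48, with a median of 0 UMIs, a 90th percentile of 10 and a highest value of 34. The top 10% of nuclei held 54.1% of its UMIs, so the leading gene marked some members far more than others. Dclk1 stood at 5.24, with 58.3% of its UMIs in the top 10%. Ndrg1 stood at 6.05 and was spread more evenly, with a median of 5 and quartiles of 1 and 10. In the Zfp804a type its median was 1, and in hepatocyte nuclei 0. Ppargc1a had a median of 2 and a 90th percentile of 8 UMIs here, against 5 and 26 in the Zfp804a type, so the ranges of single nuclei overlapped. Kcnip4 was seen in 9.12% of nuclei, with up to 54 UMIs in 1 of them. A2m, a protease inhibitor gene, was seen in 7.09%, with up to 48.

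Over members, genes outside the rule varied together weakly. Among 276 pairs of 24 genes at 3000 UMIs, Spearman's rho ran from -0.26 (Cacna1c and Dpyd) to 0.39 (Tfeb and Foxp4) with a median of 0.03. This is a description over 1579 nuclei that share a pool and a depth. Tfeb and Foxp4 lie near each other on chromosome 17. Mreg followed with Ppargc1a (0.37), Ndrg1 (0.33) and Tfeb (0.33).

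Hepatocyte RNA marked a subset of deep droplets. In 100 of the 1579 nuclei, Cps1, Apob, Hnf4a and Fgb together reached 5 per 1000 UMIs. These 100 had a median of 16938.5 UMIs, against 7798 in the others, and Scrublet called 33 of them doublets (33%), against 75 of the others (5.07%). Egfr, a receptor abundant in hepatocytes, was at 6258 CPM in the 100 and at 859.8 in the class without them. Cps1, of the urea cycle, was at 2854 and 256, and B3galt1 at 2937 and 298. Serpina3a was at 248 and 852, and Ndrg1 at 486 and 2122. Egfr and B3galt1, which did not choose these nuclei, were thus higher in them, and Serpina3a and Ndrg1 lower. Cps1 helped to choose them and was high by that choice. By depth, Egfr was at 404 CPM in the 258 members under 5000 UMIs, 479 in the 776 from there to under 10000 and 2429 in the other 545. Serpina3a ran the other way, at 1456, 954 and 572 CPM over these depths, and Ndrg1 stood at 1923, 2433 and 1564.

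Beside single genes, a block of neighbours on chromosome 17 stood out against hepatocyte nuclei. From AI661453 to Unc5cl (mm10, 47436615 to 48539714, 1.10 Mb), 17 consecutive expressed genes were at least 2-fold higher, with a median log2 ratio of 3.84, Ccnd3 counted for its position, while no other run in any comparison held over 7 genes. The block holds Ccnd3 and Tfeb. Foxp4, a forkhead factor, was at 2107 CPM here, 2044 in the Zfp804a type, 1559.5 in ductal and 97.03 in hepatocyte nuclei. Nfya, a subunit of the CCAAT-binding factor, was at 751 CPM here, 869.5 in the Zfp804a type, 361 in ductal and 38.02 in hepatocyte nuclei. Unc5cl, an adaptor of death-domain signalling, was at 394 CPM here, 139 in the Zfp804a type, 631 in ductal and 5.44 in hepatocyte nuclei. All 3 Pkhd1-positive sets thus shared the block. Mrps10, of the mitochondrial ribosome, lies to its left and was at 1011 CPM here and 62.8 in hepatocyte nuclei. Ubr2, further left, was at 176 CPM here and 265 in hepatocyte nuclei, and Mocs1, at the right end, was at 23.4 CPM here and 35.9 in hepatocyte nuclei. The rule for hepatocyte nuclei limits Ccnd3, so 12 genes, Mrps10 and 11 members of the block without Ccnd3 and Unc5cl, were summed in each nucleus. Their median was 8.79 per 1000 UMIs here (10th to 90th percentile 4.71 to 13.3), 10.5 in the Zfp804a type and 4.47 in ductal nuclei. It was 0.475 in hepatocyte nuclei, and 0.509 in the 1330 chosen with no limit on Ccnd3. The cause was not tested.

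**Figure D5:**
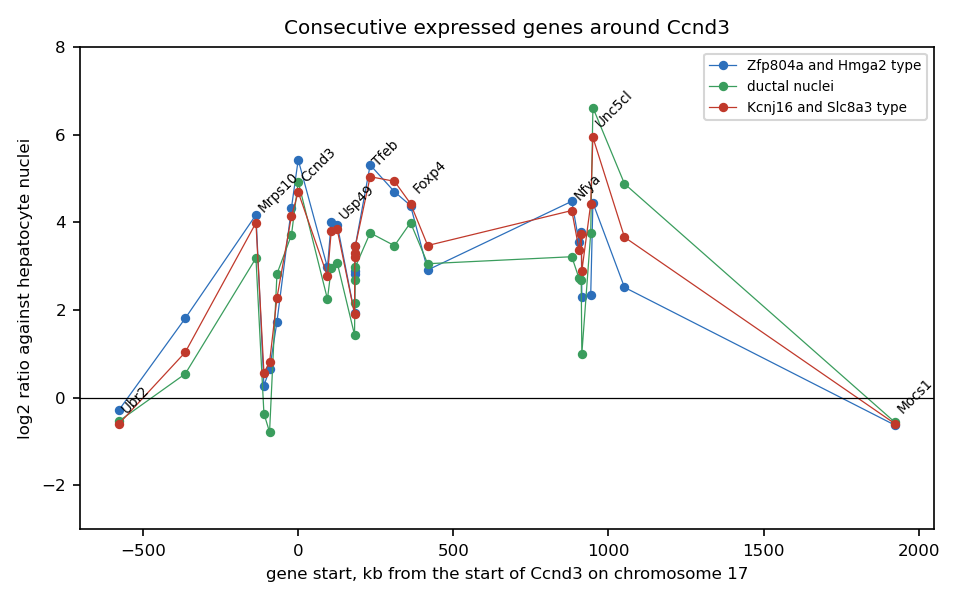
Log2 ratio against hepatocyte nuclei, with a pseudocount of 1 CPM, of each expressed gene around Ccnd3, by the distance of its start from that of Ccnd3 in kb, for the 3 Pkhd1-positive sets. All 3 lie above 0 from Mrps10 to Unc5cl except for 2 genes in ductal nuclei, and Ubr2 and Mocs1 at the ends lie below 0; Ccnd3 itself set the hepatocyte class.

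A single nucleus held far more of these 12 genes than any other member. Of its 6293 UMIs, 165 per 1000 came from them, against 22.9 in the next highest, and it was not called a doublet. Tfeb gave 337 UMIs in it, Foxp4 278 and Usp49 249, whereas Nfya gave 10, so the 12 were not evenly high. Outside that sum, Ccnd3 gave 492 UMIs and Unc5cl 144. The nucleus was picked after its values were seen. Without it, Ccnd3 in the class was at 4251 in place of 4280.5 CPM, and Usp49, a deubiquitinase, at 579.7 in place of 595.

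Some whole chromosomes lay off the median of all genes. Against the Zfp804a type, where that median was 0.03, the log2 ratio had a median of 0.28 over 407 genes of chromosome 15, 0.24 on chromosome 1, 0.21 on chromosome 11 and -0.20 on chromosome 16. On chromosome 15, 77.6% of genes were above 0, and on chromosome 16, 28.8%. Against ductal nuclei, chromosomes 15, 1 and 11 stood at 0.27, 0.24 and 0.21 and chromosome 4 at -0.27. Against hepatocyte nuclei they stood at 0.52, 0.44, 0.35 and -0.16, beside 0.16 over all genes. The 3 comparisons share the nuclei of this class, genes of 1 chromosome are not independent, and the cause was not tested.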

How the data were processed

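Single-nucleus libraries of frozen mouse liver with HCC were made with the 10x Genomics 3' kit, per the labels' protocols. The authors deposited a filtered and an unfiltered matrix of UMI counts per barcode and gene, not normalized. Cell Ranger 5.0 and mm10 are named in the submitters' processing notes; whether intronic or opposite-strand reads were counted is not stated in these sources. The 17169 filtered barcodes held 95130408 UMIs, the same in both matrices. All barcodes carry 1 suffix and name no sample, so the matrix was used as 1 pooled sample and barcodes could not be compared between libraries.

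The members and gene lists were chosen with earlier results of these data known. UMIs were summed over each set of nuclei and scaled to CPM; levels and folds carry exact Poisson 95% intervals, shares Clopper-Pearson 95% intervals, and a count of 0 a floor of 3 counts over the set. These intervals cover counting error only. Genes of the class's rule and, in each comparison, of the other set's rule were left out, except that Ccnd3 kept its place in the chromosome 17 run. A gene was called at a log2 ratio of at least 1 in size with a pseudocount of 1 CPM and a mean of 10 CPM. Named genes, excluding mt-, ribosomal, Gm and Rik names, are the 15 with the largest smallest ratio, the 12 highest and 12 lowest of each comparison, the 2 members of each list that differ most from the Zfp804a and Hmga2 type and from ductal nuclei, and members whose role a sentence needs. The free RNA profile came from 49929 uncalled barcodes with 500 to 849 UMIs, and its share in each set from haemoglobin. Scrublet (scanpy 1.11.5) called 323 of 9632 barcodes with at least 2000 UMIs as doublets, 108 of them members; doublets were kept, and removed as an alternative. Positions are from GENCODE M21, in which 32235 of 32285 gene IDs were found, and promoters from RefSeq. The code was tested on simulated data. Alternatives changed the depth, gate, filters, pseudocount, scaling, free RNA and doublets; 3 more (Smarca1 left out of the sum, no Ccnd3 limit, hepatocyte-rich members left out) were chosen after seeing the data.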

Additional observations from a re-analysis of the deposited data

How the results depend on the processing

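The share of the class among Pkhd1-positive nuclei, 37.8%, was 35.04% at 2000 UMIs, 41.5% at 5000, 32.3% with a sum of at least 6, 45.8% with at least 6 Pkhd1 UMIs, 32.7% with no dividing-cell UMI, 33.6% after thinning to 3000 UMIs and 30.3% without Smarca1. Thinning gave 469 genes higher and 509 lower against the Zfp804a and Hmga2 type and 1032 and 1110 against ductal nuclei. Subtracting free RNA with the profile of 1 to 100 UMI barcodes gave 928 higher against ductal nuclei. With a mean of at least 1 CPM, more genes were tested: 578 were higher and 772 lower against the Zfp804a and Hmga2 type, 1410 and 1662 against ductal nuclei, and 2683 higher against hepatocyte nuclei. With at least 50 CPM, fewer were tested, and the pairs became 127 and 115, 245 and 278, and 565 and 728. Without hepatocyte-rich members, 524 genes were lower against the Zfp804a and Hmga2 type. With at least 6 Asz1 and Tinag UMIs, 16 ductal nuclei remained, with 1437 higher and 1187 lower. The other counts stayed within 1.5 times of the values reported. Where no cause follows from the setting's own construction, the cause was not tested.

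Named log2 ratios changed sign against ductal nuclei only: with 16 ductal nuclei Lce1a2 (0.33), Lce1b (0.66), Pdgfrb (3.17), Ppargc1b (-0.11), Tbx3 (2.82), Smad6 (0.63), Cyp7a1 (2.31) and Tsix (2.36), Pdgfrb without doublets (0.25) and Tbx3 after thinning (0.07). Of 72 named results past 2-fold against the Zfp804a and Hmga2 type (on rounded ratios, Cd274 included though just under), 63 stayed so in every setting run on named genes; those that did not were Bcl11b, Cd274, Cxcl16, Erbb4, Glis2, Glis3, Hk1, Tek and Tgfbr3. Against ductal nuclei it was 78 of 93, and against hepatocyte nuclei 38 of 38. Subtracting free RNA, other pseudocounts and centring give no other share of nuclei. No paired analysis was possible because no barcode is tied to a sample, and no sample could be left out in turn.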
